A study of Rattus norvegicus with 24 samples.

Results

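The comparison described here is the effect of lipopolysaccharide (LPS) injection on gene expression in the blood of rats fed the G1 diet, LPS-G1 against C-G1. Its members were chosen by the diet and injection in the sample labels: 4 arrays of LPS-G1 and 4 of C-G1, 8 of the 24 arrays of the series. All rats were male Sprague Dawley animals, 8 weeks old at the start per the study's methods and thus older at the blood draw. Those of both groups ate for 6 weeks a feed enriched with G1, an oat beta-glucan of high molecular weight. LPS-G1 rats were injected in the tail vein with LPS of Escherichia coli at 10 mg/kg, and C-G1 rats with saline, in both cases in 2 doses a week apart per the study's methods, and blood was drawn when the feeding period ended. The time between the last dose and the blood draw is not given in the sources used here. The other groups ate the diet without beta-glucan (C-G0, LPS-G0) or with the beta-glucan of low molecular weight, G2 (C-G2, LPS-G2), and are used here only to set the LPS effect on G1 beside that on the other diets.

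LPS is a component of the outer membrane of Gram-negative bacteria. It is recognised by Toll-like receptor 4 (TLR4) with its co-receptors on monocytes, neutrophils and other blood cells, and signals through Myd88 to NF-kB, which drives genes of inflammatory cytokines, and through Irf3 to type I interferons, which drive the interferon-stimulated genes. Beta-glucans bind the receptor Clec7a (dectin-1) and complement receptor 3 on myeloid cells, and signal through Syk and Card9.

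On each array the RNA of 1 rat was hybridised with a pooled reference RNA in the other colour, and values are log2 ratios of rat RNA over reference. Labels and methods disagree on the dyes, the labels naming Cy3 for the rat and the methods Cy5. Over the 7074 probes that both channels detected throughout the 24 arrays, the within-group SD had a median of 0.383 (log2) in Cy3 and 0.257 in Cy5. It was larger in Cy3 for 95.3% of these probes, and Cy3 was therefore read as the rat RNA, which is what the labels say. With the dyes as the methods name them every sign given here would turn. The study reports Serp2 as up in LPS-G0 against C-G0, with the same direction by RT-PCR on rats not used for its arrays. Read with Cy3 as the rat RNA, Serp2 is up in that comparison here too, at a log2 fold change of 1.81. The 8 arrays had 10304 to 15349 probes well above background in Cy3 each, and their number limits the precision. Both groups had 1 array on slide 1, 2 on slide 2 and 1 on slide 3. C-G1 replicate 2 stood apart: the SD of its log2 ratios across probes was 0.725, against 0.272 to 0.402 on the other 7 arrays. Genes that define the cell types of blood (Hbb and Alas2 of erythroid cells, Cd3e of T cells, Pax5 of B cells, S100a8 and S100a9 of neutrophils, Csf1r of monocytes, Pf4 of platelets) were well above background on all 4 arrays of both groups.

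On the G1 diet few probes differed between the rats with and without LPS by more than their spread. Of 10157 probes tested, 1 was called at an adjusted p under 0.05 and at least 2-fold (0.00985%), and it lay in Spink2, an inhibitor of serine proteases of the Kazal type. The next smallest adjusted p was 0.9453 (limma, Benjamini-Hochberg). An unadjusted p under 0.05 with a change of 2-fold or more was met by 15 probes (0.148%), of which 10 had higher values in LPS-G1, and an unadjusted p under 0.05 alone by 292 (2.87%), a smaller share than the threshold itself. The median log2 fold change over all probes tested was 0.02, with quartiles of -0.13 and 0.18, and the median standard error was 0.216. The 95% interval of 89.0% of the probes lay wholly within a 2-fold change in either direction, so that for most of the transcripts measured a larger difference between the group means would lie outside the interval. For the remainder a 2-fold difference was not excluded by these 8 arrays.

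**Figure D1:**
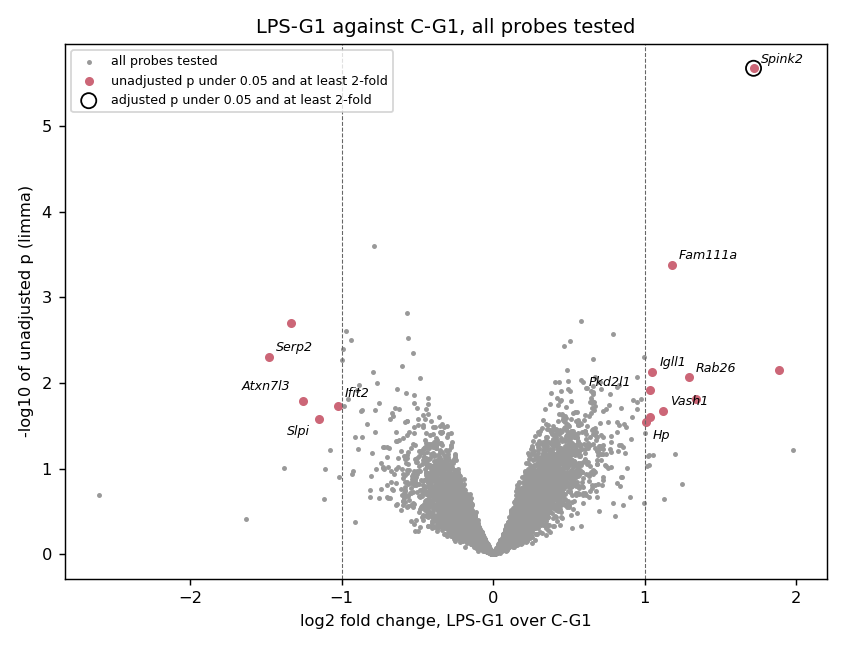
Log2 fold change of LPS-G1 over C-G1 (x axis) against -log10 of the unadjusted limma p (y axis) for each of the 10157 probes tested, with dashed lines at 2-fold. Red points are the 15 probes past the unadjusted p and 2-fold, the genes given in the text being named, and the ring marks Spink2, which stands alone at the top right.

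Spink2 rose in LPS-G1, but its level in C-G1 was near background: the probe, at chr14:33251631-33251690 on the plus strand of the rn4 assembly, exceeded background clearly on all 4 LPS-G1 arrays and on 1 of 4 in C-G1. It thus entered the test through the group in which it is high, and the size of the change is measured against dim values. The C-G1 log2 ratios of replicates 1 to 4 were -1.09, -0.69, -0.71 and -1.22. Those of LPS-G1 were 0.80, 0.19, 1.25 and 0.93. Every rat injected with LPS was thus above every C-G1 rat. The log2 fold change was 1.72 (SE 0.27, 95% interval 1.15 to 2.29), that is 3.29-fold, with an adjusted p of 0.0215 by limma over all probes. The exact two-sided permutation test over the 70 arrangements of the 8 arrays gave p = 0.0286, the smallest it can give. Any probe without overlap between the groups gives this value, as 2.83% of those tested did. It therefore adds no support to a probe picked for its small p among all tested. Within slides 1, 2 and 3 the differences were 1.88, 1.42 and 2.15. Among the 8949 probes well above background on all 8 arrays, which leave Spink2 out, no probe was called and 3 passed the unadjusted p and 2-fold. The call was lost (adjusted p = 0.114) in a fit of the 8 arrays alone, and with normexp background correction and loess the log2 fold change was 0.49 (adjusted p = 0.938). It was also lost on leaving out C-G1 replicate 1, 3 or 4 or LPS-G1 replicate 1, 3 or 4, where the adjusted p lay between 0.0549 and 0.208 and the log2 fold change between 1.57 and 1.79.

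Spink2 was also higher after LPS on the diet without beta-glucan, by 1.14 (SE 0.27), and differed by 0.16 (SE 0.27) on the G2 diet; neither passed the adjusted threshold. The LPS effect on G1 exceeded that on G2 by 1.56 (SE 0.39, unadjusted p = 0.000526), which did not pass the adjustment over all probes (adjusted p = 0.9998). It exceeded that on G0 by 0.58 (SE 0.39). The mean log2 ratios of the groups without LPS were -0.83 ± 0.20 in C-G0, -0.93 ± 0.26 in C-G1 and -0.13 ± 0.55 in C-G2 (SD, n = 4 each). With LPS they were 0.31 ± 0.49, 0.79 ± 0.44 and 0.03 ± 0.39, so that the 2 groups on G2 sat between the others. The G2 rats without LPS spread widely, and their arrays overlapped those of LPS-G2.

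Besides Spink2, 4 probes with a gene symbol changed at least 2-fold at an unadjusted p under 0.05 with no overlap between the 4 and 4 arrays, and all 4 had an adjusted p of 0.945. Separation of the arrays was in itself met by 287 probes, 2.83% of those tested (1.35% higher and 1.48% lower in LPS-G1). Higher in LPS-G1 was Fam111a, a serine protease that acts at replication forks and against some viruses (chr1:215596354-215596413, rn4). Its log2 ratios were -1.12, -0.15, -1.29 and -0.16 in C-G1 and 0.89, 0.80, 0.16 and 0.15 in LPS-G1. In C-G1 only 1 of 4 arrays had the probe well above background, so it was tested through LPS-G1 and its log2 fold change of 1.18 (SE 0.29) is against dim values. The difference was positive on each slide and smallest, 0.31, on slide 3. The effect on the diet without beta-glucan was 1.63, the largest of the 3 diets, and on G2 it was 0.43. There too the groups without LPS were dim, with 1 of 4 C-G0 and 2 of 4 C-G2 arrays well above background.

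Igll1, part of the surrogate light chain of the receptor on precursor B cells, was at -0.99, -0.82, -0.29 and -0.73 in C-G1 and at -0.08, 0.95, 0.14 and 0.36 in LPS-G1. The log2 fold change was 1.05 (SE 0.36), with 0.91 on slide 1 and 1.09 on slide 3. In C-G1 3 of 4 arrays had the probe well above background, so it was tested through LPS-G1, where it is high. On the other diets the LPS effect was -0.44 (G0) and -0.10 (G2). Of 12 tested B cell markers, 3 were above and 9 below 0, with a median log2 fold change of -0.11; without LPS-G1 replicate 4 it was 0.05, with 7 above and 5 below 0.

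Lower in LPS-G1 were Atxn7l3 and Ifit2. Atxn7l3 belongs to the module that removes ubiquitin from histones in the SAGA coactivator. It was at 0.46, 0.94, 0.62 and 0.72 in C-G1 and at 0.15, -1.41, -0.67 and -0.35 in LPS-G1, a log2 fold change of -1.26 (SE 0.48). In LPS-G1 only 1 of 4 arrays had it well above background, so it was tested through C-G1 and its fold is against dim values. Ifit2 codes for an interferon-induced protein that binds viral RNA (chr1:238565078-238565137, rn4). Its C-G1 arrays were nearly alike, at 0.82, 0.85, 0.91 and 0.79, and its LPS-G1 arrays were spread lower, at 0.30, -0.76, -0.18 and -0.10. The log2 fold change was -1.03 (SE 0.41).

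The others past 2-fold at the unadjusted threshold overlapped between the groups or had no gene symbol in the files, and those given here are named after their values were seen. Haptoglobin (Hp), an acute-phase protein that binds free haemoglobin, was at -0.36, -2.05, 0.51 and -0.25 in C-G1 and at -0.06, 0.42, 0.67 and 0.84 in LPS-G1. Its log2 fold change was 1.01 (SE 0.43), and C-G1 replicate 2 was by far its lowest array. With 3 of 4 C-G1 arrays well above background, Hp was tested through LPS-G1. Slpi, an inhibitor of neutrophil proteases, was at 1.78, 0.52, 0.22 and 0.02 in C-G1 and at -1.05, 0.07, -0.82 and -0.24 in LPS-G1, a log2 fold change of -1.15 (SE 0.48). Serp2, Rab26, Pkd2l1 and Vash1 had log2 fold changes of -1.48, 1.29, 1.04 and 1.12. Rab26 and Vash1 were well above background on 2 of 4 C-G1 arrays and all 4 of LPS-G1. They were thus tested through LPS-G1, and their folds are against dim values. The lowest C-G1 array was replicate 2 for Rab26 (-2.43) and Pkd2l1 (-1.93), and replicate 3 for Vash1 (-2.83).

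**Figure D2:**
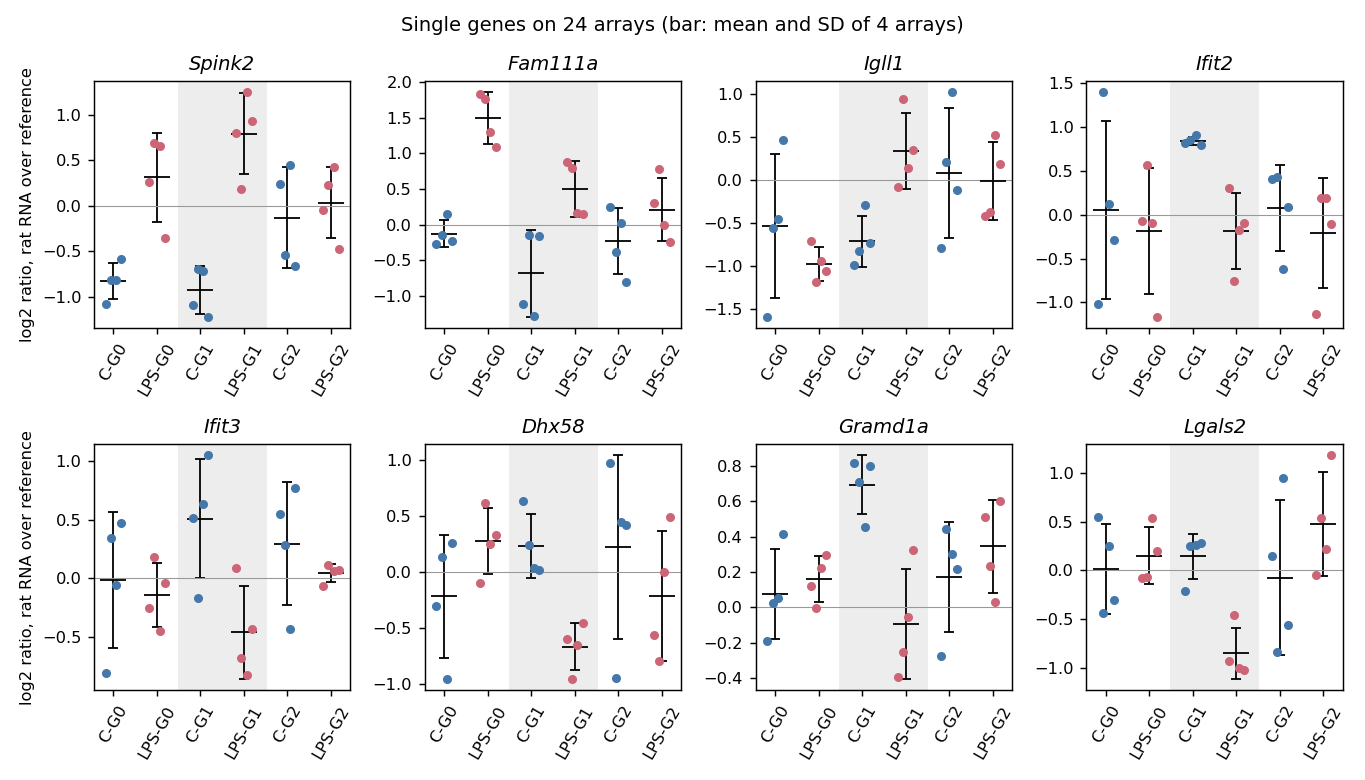
Log2 ratio of rat RNA over reference (y axis) on each of the 24 arrays for 8 genes, by group (x axis; blue without LPS, red with LPS, 4 arrays each, bar for mean and SD). The G1 groups are shaded: the 4 LPS-G1 arrays of Spink2, Fam111a and Igll1 lie above, and those of Ifit2, Dhx58, Gramd1a and Lgals2 below, the 4 C-G1 arrays, while those of Ifit3 overlap.

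The interferon-stimulated genes were the list with the lowest median over all 8 arrays; without C-G1 replicate 1 or LPS-G1 replicate 2 or 4 the immediate-early genes, and in the last case the cytokines too, had a lower one. Of 31 genes listed, 23 were tested, and 19 of them had a log2 fold change below 0 and 4 above, where 46.6% of all probes were below 0. The list's median was -0.31. None of the 23 passed the adjusted threshold, and 4 were lower at an unadjusted p under 0.05, where 0.876% of all probes were. The groups did not overlap for 8 members, all lower in LPS-G1, against 1.48% of all probes. Of the 23, Ifit2, Dhx58 and Eif2ak2 passed the filter through C-G1 alone, where they are high. Over the other 20, which were well above background on all 8 arrays, the median was -0.23, above that of the immediate-early genes, with 16 below 0, 2 lower at an unadjusted p under 0.05 and 5 without overlap, against 47.8%, 0.771% and 1.42% of the 8949 probes measured on all 8 arrays; the level of these 20 lay at 0.14 to 0.23 in C-G1 and -0.19 to 0.01 in LPS-G1. Expressed as the median log2 ratio over the list on each array, C-G1 lay at 0.23, 0.34, 0.19 and 0.23 and LPS-G1 at 0.06, -0.19, -0.18 and -0.05, without overlap. The within-slide medians were -0.28, -0.36 and -0.28. On leaving out any 1 of the 8 arrays the list's median stayed between -0.37 and -0.25, with 18 to 21 of the 23 members below 0. With normexp and loess it was -0.20.

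Ifit3, which binds Ifit2 in an antiviral complex, had the smallest p of the list (chr1:238575730-238575789, rn4). It was at 0.51, -0.17, 0.64 and 1.05 in C-G1 and at 0.09, -0.68, -0.82 and -0.43 in LPS-G1. The log2 fold change was -0.97 (SE 0.29), with an adjusted p of 0.945 and an exact permutation p of 0.0571, C-G1 replicate 2 being below LPS-G1 replicate 1. With limma's array weights, which downweight arrays that fit poorly, it was called (-1.27, adjusted p = 0.0159). Dhx58, a helicase that tunes the sensing of viral RNA, was at 0.63, 0.24, 0.04 and 0.02 in C-G1 and at -0.60, -0.96, -0.65 and -0.46 in LPS-G1, a log2 fold change of -0.90 (SE 0.33). All 4 C-G1 arrays but only 1 of 4 in LPS-G1 had it well above background. Oasl2, of the oligoadenylate synthetase family, had -0.57 (SE 0.24).

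The members without an unadjusted p under 0.05 included transcription factors of the interferon response, Irf1 at -0.51 (SE 0.28) and Irf7 at -0.41 (SE 0.49). Mx1, an antiviral GTPase, had -0.47 (SE 0.26). The members above 0 were Isg20 (0.31), Rsad2 (0.24), Ifi27 (0.08) and Ifi35 (0.00). The levels of Isg15 and Irf7 on C-G1 replicate 2, -1.16 and -1.67, were below those of the other C-G1 arrays, so the members did not move together on that array.

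The interferon-response element, which binds transcription factors of the interferon response, was searched on both strands as GAAA, any 2 bases and GAAA again in the 250 bases before the transcript start (RefSeq, GRCr8 assembly). Of the 23 tested members 18 had a promoter in the table, and 13 of the 18 (72.2%) held at least 1 match, against 1140 of all 33469 promoters (3.41%). The share of the list counts genes with a match in any of their promoters, and that of the whole table counts single promoters. The list was drawn up as interferon-stimulated genes, so its share describes that choice and does not depend on these arrays. A match is a description of the sequence and not of binding. The promoters of Ifit3 and Parp14, a mono-ADP-ribosyltransferase, are shown because these genes had the smallest p among members with a match whose promoter begins at the outer end of the gene in the same table. The capitals mark the match, which starts 44 bases before the transcript start in Ifit3 and 76 bases before it in Parp14, and reads on the opposite strand in Ifit3. Both sequences are written 5′ to 3′ along the plus strand and end at the base before the start.
Ifit3, chr1:241527076-241527325, plus strand: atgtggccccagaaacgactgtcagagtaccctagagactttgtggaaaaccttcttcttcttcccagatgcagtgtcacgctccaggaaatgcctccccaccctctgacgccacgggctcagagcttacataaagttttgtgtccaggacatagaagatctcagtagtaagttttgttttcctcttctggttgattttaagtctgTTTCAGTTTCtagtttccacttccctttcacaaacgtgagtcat
Parp14, chr11:78407884-78408133, plus strand: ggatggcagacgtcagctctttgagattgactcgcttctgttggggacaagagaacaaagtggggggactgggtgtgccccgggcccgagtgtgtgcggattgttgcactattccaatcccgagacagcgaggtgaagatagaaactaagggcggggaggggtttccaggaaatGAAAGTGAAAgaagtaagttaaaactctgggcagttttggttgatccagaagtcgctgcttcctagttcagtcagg
Parp14 had a log2 fold change of -0.26 (SE 0.18); its C-G1 arrays lay at 0.18, 0.40, 0.19 and 0.31 and its LPS-G1 arrays at 0.17, -0.07, -0.09 and 0.03.

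Across the 6 groups, C-G1 had the highest median of interferon-stimulated levels, 0.23, with a range of 0.19 to 0.34. The other groups without LPS were at 0.03 (C-G0, -0.78 to 0.26) and 0.06 (C-G2, -0.12 to 0.41), and the rats with LPS at -0.12 on G0, -0.11 on G1 and -0.05 on G2. The LPS-G1 arrays thus overlapped those of the other LPS groups. These levels include Ifit2, Dhx58 and Eif2ak2, which passed the filter through C-G1 alone, where they are high. The rank of C-G1 among the groups is therefore not independent of the filter. The level without these genes was taken in the G1 groups only. The list's median LPS effect was -0.01 on G0, with 11 of 23 members above 0, and -0.22 on G2, with 2 of 23 above 0. No member differed between G1 and either other diet at an adjusted p under 0.05.

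**Figure D3:**
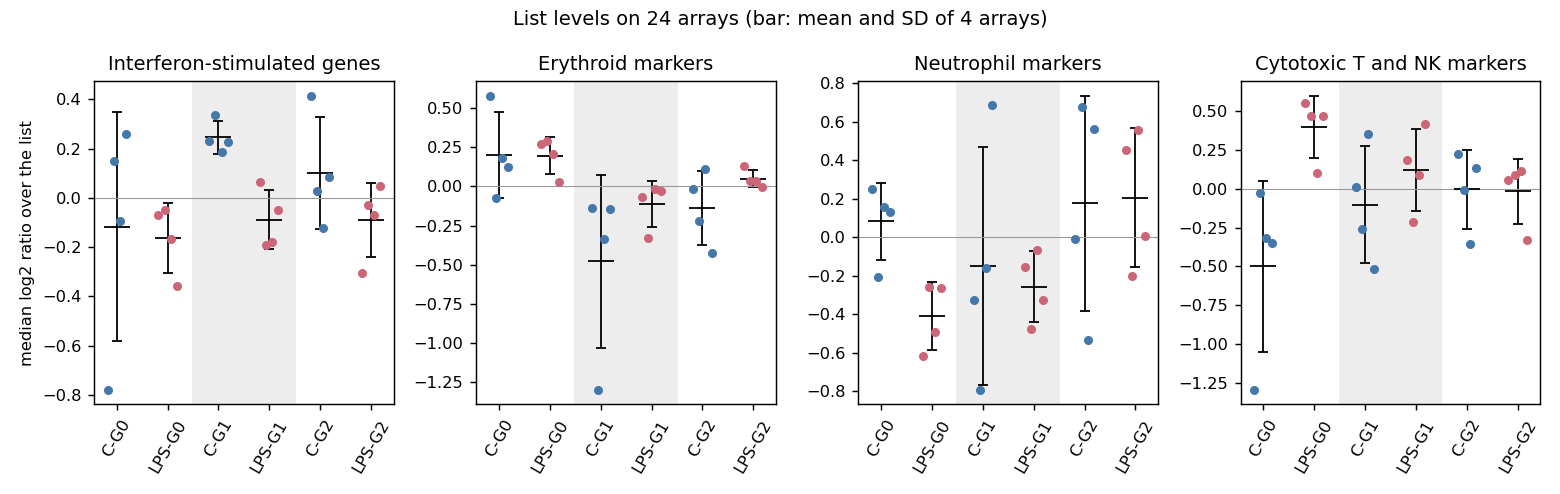
Median log2 ratio over the tested members of 4 gene lists (y axis) on each of the 24 arrays by group (x axis; blue without LPS, red with LPS, bar for mean and SD of 4 arrays). In the shaded G1 groups the interferon-stimulated level separates all C-G1 arrays from all LPS-G1 arrays, whereas the erythroid level has 1 C-G1 array at -1.30 and the neutrophil level 1 C-G1 array at 0.69.

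The genes that sense LPS and pass its signal on showed no common direction. Of 17 listed, 8 were tested (4 above and 4 below 0, median log2 fold change -0.02); Tlr4, Cd14 and Ly96, which form the receptor on the cell surface, did not pass the filter on dim probes. The adaptor Myd88 was at -0.01, 0.46, 0.34 and 0.16 in C-G1 and at -0.65, -0.04, -0.05 and 0.17 in LPS-G1, a log2 fold change of -0.38 (95% interval -0.86 to 0.10). The ubiquitin ligase Traf6 had 0.39 (-0.17 to 0.95), and Tab2, which links it to the kinase Tak1, -0.21 (-0.52 to 0.10). Of the NF-kB subunits and inhibitors, 2 of 8 were above 0 (median -0.07), with Nfkbib, an inhibitor that holds NF-kB in the cytoplasm, at 0.43 and not overlapping between the groups, Bcl3 at -0.27 and Nfkbia at -0.24. Of the proteins that brake these pathways, 3 of 10 were above 0 (median -0.15). Tnip1, a partner of the deubiquitinase Tnfaip3, was the only one of them with an unadjusted p under 0.05, at 0.51 (SE 0.19), and it was -0.38 with normexp and loess; Cyld was at -0.48 and Il1rn, the antagonist of the interleukin 1 receptor, at -0.24.

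Few inflammatory cytokines were bright enough to test: 9 of 22 genes were tested, and Il6, Il10, Ifng and Cxcl10 did not pass the filter. Of the 9, 3 were above 0 (median -0.21). Tnf was at -0.28, 0.14, -0.42 and 0.72 in C-G1 and at 0.53, -0.51, 0.11 and 0.62 in LPS-G1, a log2 fold change of 0.15 (SE 0.38). Il1b had -0.21 (SE 0.34). Both groups overlapped fully for both genes. The chemokine Ccl5 had an unadjusted p under 0.05, at 0.52 (SE 0.22), and C-G1 replicate 4 was its lowest array, at -0.93; without that array its log2 fold change was 0.26. Ccl3 had -0.40 and Xcl1 -0.59, but in LPS-G1 Xcl1 clearly exceeded background on 1 array alone. Of the immediate-early genes, which respond within minutes to stimulation, 7 of 9 were below 0 (median -0.27), where 46.6% of all probes were, among them the transcription factor subunit Junb at -0.45 (SE 0.21) and Ier5 at -0.55 (SE 0.25), both at an unadjusted p under 0.05 (0.876% of all probes in this direction), and the antiproliferative Btg2 at -0.51 (SE 0.27). Leaving out C-G1 replicate 2 or 3 or LPS-G1 replicate 1 left none of the 9 under that p. A second probe of Ier5 gave -0.22. The groups did not overlap for 1 of the 9 members, which was higher in LPS-G1, against 1.35% of all probes in that direction.

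The receptors and signalling proteins of beta-glucan, which both groups ate, had a median log2 fold change of 0.04 over 12 tested genes, 7 above and 5 below 0. Clec7a, the receptor itself, had 0.15 (SE 0.27), Syk -0.07 (SE 0.20) and Card9 0.40 (SE 0.22). Fcer1g had -0.29 and Bcl10, which joins Card9 in a complex, -0.50. Of the antioxidant enzymes, which remove superoxide and peroxides, 11 of 18 were above 0 (median 0.13), and without C-G1 replicate 2, 6 of 18 (median -0.05). Catalase (Cat) was higher at an unadjusted p under 0.05, at 0.66 (SE 0.26), and the mitochondrial superoxide dismutase Sod2 lower, at -0.57 (SE 0.24). Cat was at -0.46, -1.05, -0.76 and -0.34 in C-G1 and at 0.22, 0.10, 0.24 and -0.52 in LPS-G1, so that 3 of 4 LPS-G1 arrays were above all of C-G1. Sod2 was at 0.06, -0.37, 0.56 and 0.24 in C-G1 and at -0.34, -0.55, -0.19 and -0.71 in LPS-G1, with 1 C-G1 array among those of LPS-G1. Nqo1 had 0.51 (SE 0.28). Without C-G1 replicate 2, Cat was at 0.53, no longer under that p, and Nqo1 at 0.15. The genes of antigen presentation on MHC class II had a median of -0.08 (4 of 10 above 0), with Ctss at -0.24, RT1-DMb at 0.16 and RT1-Da at -0.22. Glucocorticoid-responsive genes had a median of -0.01 (4 of 8 above 0), with Cebpd at -0.37, Cebpb at -0.44 and Ddit4 at 0.23.

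**Figure D4:**
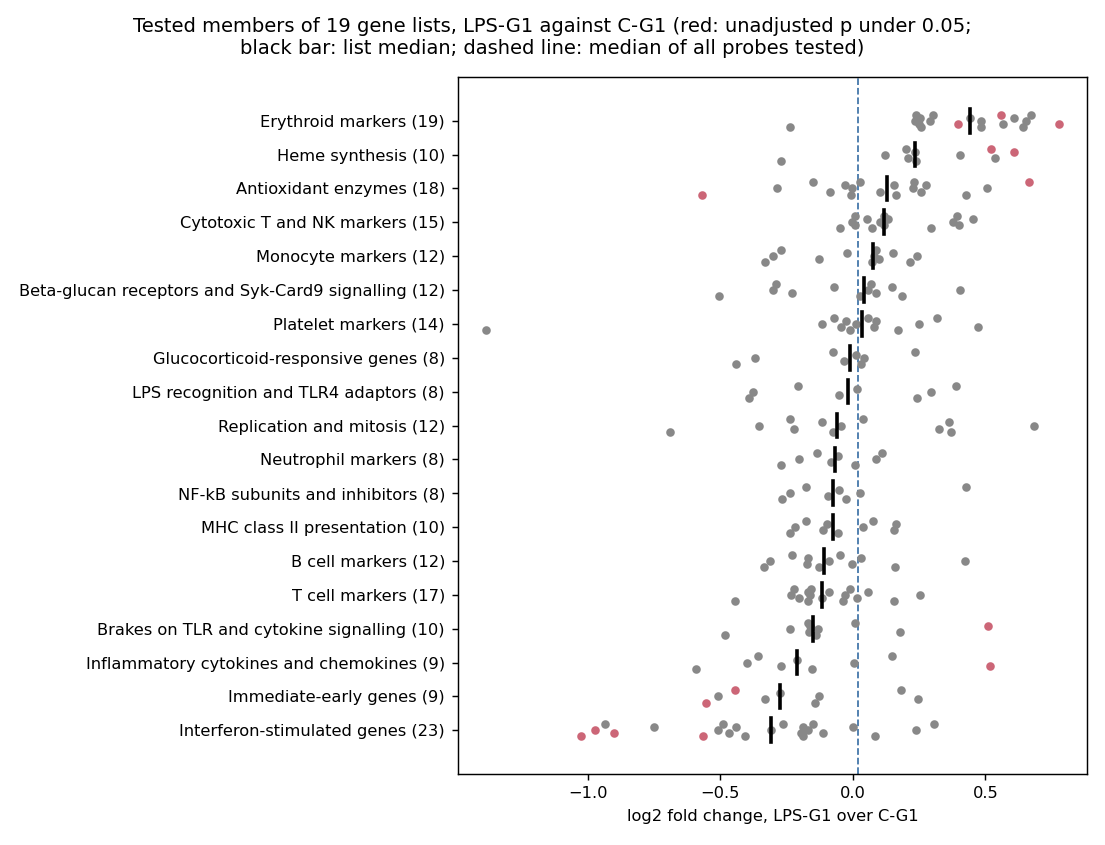
Log2 fold change of LPS-G1 over C-G1 (x axis) for each tested member of 19 gene lists (y axis, number of members tested in parentheses), ordered by list median. Red points have an unadjusted p under 0.05, black bars are list medians and the dashed line is the median of all probes tested, 0.02; interferon-stimulated genes lie lowest and erythroid markers highest.

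Erythroid markers had the highest median of the lists, 0.44, with 18 of 19 tested members above 0, where 53.4% of all probes were. In blood RNA, fewer cells of a type and less RNA per cell cannot be told apart. Higher at an unadjusted p under 0.05, met by 2% of all probes in this direction, were 3 members, among them Gata1, the transcription factor of red cell precursors, at 0.56 (SE 0.27) and the adducin Add2 at 0.40 (SE 0.17). The list's median level was -0.14, -1.30, -0.34 and -0.14 on the C-G1 arrays and -0.07, -0.33, -0.02 and -0.03 on those of LPS-G1. C-G1 replicate 2 lay far below the others, and both groups had their lowest level on slide 2. Without C-G1 replicate 2 the median log2 fold change was 0.18, with 16 of 19 above 0 and none at an unadjusted p under 0.05. The within-slide medians were 0.15, 0.65 and 0.17. Add2 did not overlap between the groups, at -0.38, -0.77, -0.34 and -0.46 in C-G1 and 0.03, -0.33, 0.07 and -0.12 in LPS-G1. The globin genes Hba-a1 and Hbb, whose near-identical copies a probe may not tell apart, had 0.26 (SE 0.13) and 0.25 (SE 0.20).

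The enzymes and transporters of heme synthesis, of which Alas2 is shared with the erythroid list, had a median of 0.24 with 9 of 10 above 0, against 53.4% of all probes. Slc25a37, which brings iron into mitochondria, had 0.61 (SE 0.27) and Abcb10 0.52 (SE 0.23), both at an unadjusted p under 0.05 (2% of all probes in this direction), while Alas1, the form of the first enzyme outside red cells, had -0.27 (SE 0.19). Without C-G1 replicate 2 the median was 0.00, with 5 of 10 above 0. The levels of this list on C-G1 replicate 2 and LPS-G1 replicate 2 were -1.37 and -0.60, and those on the other 6 arrays between -0.54 and -0.03. The part of erythroid and heme transcripts on those 2 arrays in the other results was not tested. Of replication and mitosis genes 5 of 12 were above 0 (median -0.06), with Mki67 at 0.68, Mcm3 at -0.36 and Ube2c at -0.69.

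The markers of white cells differed little between the groups. Cytotoxic T and NK markers had a median of 0.12. Above 0 were 13 of 15, where 53.4% of all probes were, and none had an unadjusted p under 0.05. Without C-G1 replicate 4, 8 of 15 were above 0 (median 0.07), and without LPS-G1 replicate 4, 9 of 15 (median 0.02). Within slides 1, 2 and 3 the median was 0.11, -0.17 and 1.07. The level of this list was 0.01, -0.26, 0.35 and -0.52 in C-G1 and 0.18, -0.21, 0.09 and 0.42 in LPS-G1. The ranges of the groups overlapped from -0.21 to 0.35. Nkg7 had 0.45 (SE 0.25), the granzymes Gzmm 0.38 (SE 0.22) and Gzmk 0.39 (SE 0.25). On the diet without beta-glucan the median LPS effect on this list was 0.79. The difference between the diets did not pass the adjusted threshold for any of its members.

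T cell markers had a median of -0.12 (4 of 17 above 0), with Cd8b at -0.20, Tcf7 at -0.45 and Cd247 at -0.23. Without C-G1 replicate 2 the T cell median was 0.03 with 12 of 17 above 0, Tcf7 at -0.074 and Cd247 at -0.011. Among the B cell markers Pax5 was at 0.42, Vpreb3 at -0.31 and Fcrla at -0.17. Monocyte markers had a median of 0.08 (7 of 12 above 0), with Adgre1 at -0.27, Nr4a1 at -0.33 and Csf1r at 0.22. Platelet markers had 0.04 (8 of 14 above 0), with Gp5 at 0.25 and Tubb1 at 0.47, and without C-G1 replicate 2 a median of -0.14 (3 of 14 above 0), with Gp5 at 0.086. The largest log2 fold change among them, -1.38 (SE 0.80) for Selp, the adhesion molecule P-selectin, came with C-G1 replicate 1 at 2.47 and LPS-G1 replicate 1 at -1.63, the other 6 arrays lying between -0.78 and 0.47. Neutrophil markers had a median of -0.07 (3 of 8 above 0). S100a8 and S100a9, the alarmins that neutrophils hold in large amounts, had -0.13 (SE 0.34) and -0.27 (SE 0.38), and the chemokine receptor Cxcr2 -0.20 (SE 0.29). Their list's level was -0.33, -0.79, -0.16 and 0.69 in C-G1 and -0.15, -0.48, -0.07 and -0.32 in LPS-G1. The C-G1 group thus spanned the whole range of LPS-G1, and the direction turned on single arrays: without C-G1 replicate 4 all 8 members were above 0 (median 0.16), and without C-G1 replicate 2 all 8 were below 0 (median -0.30).

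No probe differed in its LPS effect between G1 and either other diet at an adjusted p under 0.05 (limma; smallest adjusted p 0.641 for G1 minus G0 and 0.9998 for G1 minus G2). At an unadjusted p under 0.05 there were 306 (3.01%) for G1 minus G0 and 98 (0.965%) for G1 minus G2. Between G1 and G0 the smallest p was that of Serp2, a small protein of the endoplasmic reticulum stress response. It was at -0.30, -1.35, -0.58 and 0.61 in C-G1 and at -2.07, -0.58, -2.66 and -2.22 in LPS-G1, a log2 fold change of -1.48 (SE 0.48), against 1.81 on G0. The difference was -3.29 (SE 0.67, unadjusted p = 6.308e-05). Slc16a1, a transporter of lactate, was well above background on 2 of 4 C-G1 arrays and all of LPS-G1. It did not overlap between the groups, at -0.14, -0.88, -0.64 and -0.73 in C-G1 and 0.34, 0.27, 0.11 and 0.69 in LPS-G1. Its LPS effect was 0.95 on G1 and -1.30 on G0. On G2 it was 0.79, but there Slc16a1 clearly exceeded background on only 1 C-G2 array and 1 LPS-G2 array. The C-G2 arrays also spread widely (SD 0.98), so the closeness of the G2 effect to that on G1 rests on dim values.

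Between G1 and G2, Gramd1a and Lgals2 followed Spink2. Gramd1a, which moves cholesterol from the plasma membrane to the endoplasmic reticulum, was at 0.82, 0.71, 0.45 and 0.80 in C-G1 and at -0.39, -0.25, -0.06 and 0.32 in LPS-G1. Its log2 fold change of -0.79 (SE 0.18) had the smallest unadjusted p after that of Spink2 (0.000252, adjusted p = 0.945), and the effects on G0 and G2 were 0.08 and 0.17. Lgals2, the sugar-binding galectin 2, was at -0.21, 0.25, 0.26 and 0.28 in C-G1 and at -0.92, -0.46, -0.99 and -1.02 in LPS-G1. Its log2 fold change was -0.99 (SE 0.31), with 0.13 on G0 and 0.55 on G2. In both genes every LPS-G1 array was below every C-G1 array. For Lgals2 the G1 minus G2 difference was -1.54 (SE 0.44), and for Gramd1a it was -0.96 (SE 0.26).

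**Figure D5:**
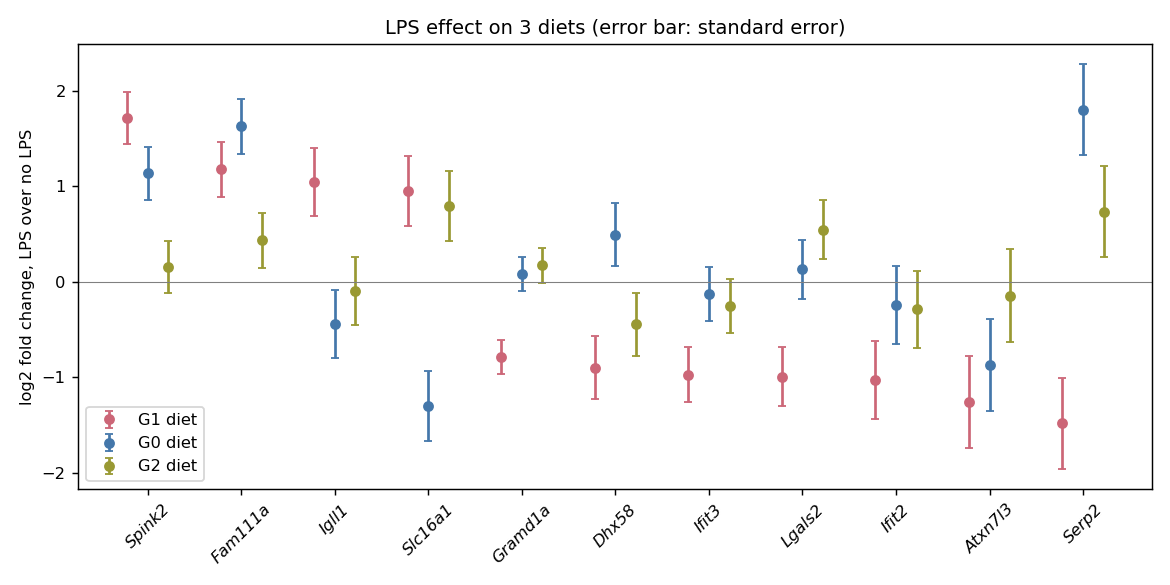
LPS effect (log2 fold change of LPS over no LPS, y axis, error bars standard errors) on the G1, G0 and G2 diets for 11 genes (x axis). Serp2 and Slc16a1 have opposite signs on G1 and G0, while Spink2 and Fam111a are above 0 on both.

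In the same model and over the same probes, LPS-G0 against C-G0 had 1155 probes at an unadjusted p under 0.05 and 48 of these past 2-fold, and LPS-G2 against C-G2 had 113 and 5, with 0 called in either. Of the 4 LPS-G0 arrays, 2 carry titles with LPS and characteristics that call them controls. All effects on G0 given here include these 2 arrays. Without them too no probe differed between G1 and G0 at an adjusted p under 0.05. As the count was 0 with them already, it does not show how far they move the G0 effects. The probes were chosen for being above background in the G1 groups, so these counts do not cover transcripts seen only on the other diets. The median SD within a group across probes was 0.277 (log2) in C-G1 and 0.224 in LPS-G1, and between 0.219 and 0.368 in the other 4 groups, with C-G0 the largest.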

How the data were processed

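Blood RNA of 24 single rats was measured on 2-color Agilent rat arrays, 4 in each of 6 groups, against a pooled reference. By the file headers the authors used Agilent Feature Extraction 10.10.1.1 (10.7.3.1 in the labels) to subtract background and balance the dyes by Lowess within arrays, and deposited log10 ratios of Cy5 over Cy3 and processed intensities of each channel. A table of the same log10 ratios, also deposited by the authors, was identical to the array files. Probe positions are on rn4.

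From the deposited log10 ratios, log2 ratios of Cy3 over Cy5 were computed. Control and outlier spots (870 to 1133 per array of G1) were left out and spots of a probe averaged. A probe was tested if Cy3 was well above background on every C-G1 array (9398) or every LPS-G1 array (9708), which gave 10157, 8119 with a symbol; 8949 passed on all 8 arrays. A probe counted as well above background where at least 50% of its spots were. The model held all 24 arrays and was fitted in limma (version 3.58.1, R 4.3.3, files read with the package data.table, version 1.17.8) as 6 group means, two-sided, with Benjamini-Hochberg adjustment, and called at an adjusted p under 0.05 and at least 2-fold. The fit was tested on simulated data. Single values were also tested by exact permutation. Per the methods each rat had its own cage; litters are not given in the sources used here.

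The comparison, the gene lists and the naming rule were chosen with earlier results of these data known. Named are, in each direction, called probes with a symbol, filled to 10 with the smallest p among 2-fold probes without overlap of the arrays; from each of 19 lists the 3 members of smallest p; and for each difference between diets the 3 genes of smallest p. Some genes that meet the rule are not reported here. A gene is given by its brightest tested probe, and different probes of a named gene had the same sign. Gene names were updated through RefSeq accessions, of which those of 18643 probes were found (GRCr8 table, names and promoters only). Exons and untranslated regions at the probes were not used here. Alternatives were the 8 arrays alone, slide or replicate blocks, normexp with an offset of 50 and loess, median centring, other filters on dim probes, Cy3 alone, the ratio of processed signals, limma's variance trend and array weights, the Tukey test named in the methods, and leaving out each array.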

Additional observations from a re-analysis of the deposited data

Results flagged for a closer look

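Over the named genes and the list levels, 166 groups of 4 arrays were searched for single arrays far from the other 3. Of the 166 groups, 11 were flagged, close to the share of about 1 in 20 that chance gives. The groups are not independent, since named genes also enter the list levels, and the flags are given as descriptions only. In C-G1 replicate 2 the erythroid level was -1.30, the B cell level 0.39, Cd247 1.08 and Fcrla 0.32, the erythroid level being below and the other 3 above the rest of C-G1. In LPS-G1 replicate 2 the erythroid level was -0.33, the heme synthesis level -0.60 and Gzmk -0.24, all below the other LPS-G1 arrays. Both arrays were on slide 2. The other 4 were Ddit4 at -0.16 in C-G1 replicate 3, Lgals2 at -0.21 in C-G1 replicate 1, the NF-kB level at -0.22 in LPS-G1 replicate 3 and the glucocorticoid-responsive level at -0.15 in LPS-G1 replicate 1, each the lowest of its group.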

How the results depend on the processing

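The call of Spink2 held with slide as a block over 24 arrays, median centring, the ratio of processed signals, limma's variance trend and array weights, and without C-G1 replicate 2 or LPS-G1 replicate 2. With array weights 3 probes were called (1 higher, 2 lower: Ifit3 and a probe with no gene symbol). The count was 0 with the 8 arrays alone, slide as a block in the 8 arrays, normexp and loess, no filter on dim probes, the filter on all 8 arrays (which leaves Spink2 untested), Cy3 alone and the Tukey test of the methods, and 0 to 1 on leaving out 1 array. For Spink2 the adjusted p ranged from 0.000903 (array weights) to 1 (Tukey's test), and its log2 fold change from 0.49 (normexp) to 1.92 (without LPS-G1 replicate 2). The 15 probes at an unadjusted p under 0.05 and 2-fold became 23 with slide as a block in the 8 arrays, 4 (3 higher, 1 lower) with normexp, 329 (222 higher, 107 lower) with no filter on dim probes, 3 (1 higher, 2 lower) under the filter on all 8 arrays, 37 (9 higher, 28 lower) with array weights, 3 with Tukey's test, and 20 to 44 on leaving out 1 array (22 without C-G1 replicate 2, of which 6 were higher and 16 lower; 42 without C-G1 replicate 4 and 44 without C-G1 replicate 1). C-G1 and LPS-G1 share replicate numbers, but the deviations of same-numbered arrays correlated at 0.314, 0.343, 0.194 and 0.0004 across probes. Same-numbered arrays also share a slide, and those of numbers 1, 2 and 3, but not of 4, correlated best with their own number, a hint of pairing from the data and not from the design. As 1 of the 4 pairs did not correlate, the numbers were not taken as pairs; with a replicate block in the 8 arrays 0 probes were called and 25 (17 higher, 8 lower) passed the unadjusted p and 2-fold, and Spink2 had an adjusted p of 0.194. Signs turned for Tnip1 with normexp (-0.38), for RT1-DMb with Cy3 alone (-0.029), and without C-G1 replicate 4 for S100a9, Cxcr2 and S100a8, which ranged from -0.465 to 0.029, from -0.39 to 0.10 and from -0.38 to 0.18 on leaving out 1 array. The interferon-stimulated median was -0.20 with normexp, and the beta-glucan receptor median ranged from -0.10 (without C-G1 replicate 3) to 0.06. The causes were not tested. No list member passed an adjusted p under 0.05 in the 14 alternatives run on the lists, which did not include array weights, and no probe differed between diets in any alternative run. The medians of the LPS recognition, beta-glucan, glucocorticoid, replication, monocyte, T cell, B cell, platelet, antioxidant, heme and neutrophil lists changed sign on leaving out 1 array. Restricting the lists to members well above background on all 8 arrays, chosen after seeing the data, left 0 members past the adjusted p. Signal near background limits Spink2, Fam111a, Atxn7l3, Dhx58, Eif2ak2 and Xcl1, each well above it on 1 of 4 arrays of the lower group. Slc16a1, Rab26 and Vash1 were well above it on 2 of 4 C-G1 arrays. Igll1, Hp, Nqo1, Ifit2 and Serp2 were so on 3 of 4 arrays of the lower group.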
